A study of Mus musculus with 70 samples.

Results

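The plasminogen activator system was followed through 5 of its genes, Plau, Plat, Plaur, Serpinb2 and Serpine2, in a mouse renal carcinoma model of serial passage through mice. The genes were chosen by name, with no measured value in the rule but with earlier results of these data known. Every non-control probe of the array that carried a member's name or transcript was taken. Each member had 1 probe, which gave 5 of 55681 probes and 5 of the 21159 gene symbols on the array.

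Plasminogen activators cut the abundant zymogen plasminogen into plasmin, a broad protease that degrades fibrin and other matrix proteins and activates some growth factors and matrix metalloproteinases. Plau encodes urokinase (uPA), which works at the cell surface when bound to its receptor uPAR, the product of Plaur, and Plat encodes the tissue-type activator (tPA), best known for fibrin lysis in blood vessels. Serpinb2 (PAI-2, a mostly intracellular serpin) and Serpine2 (protease nexin-1, a secreted serpin that also blocks thrombin) inhibit the activators, and urokinase and its receptor are widely studied in tumour invasion.

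The starting cells, P0, were RENCA cells, a mouse renal adenocarcinoma line from BALB/c mice, which the study had transduced to express green fluorescent protein (GFP). All other groups descend from them and carry the same transgene, according to the study's methods. Wild type female BALB/c hosts, 6 weeks old at implantation, received the cells under the renal capsule or through a tail vein, and this was repeated for 6 passages, P1 to P6. KPT lines (the kidney route) were recovered from the primary kidney tumour, T-LM lines (the tail route) from lung metastases after tail vein injection and K-LM lines (the lung route) from lung metastases after implantation into the kidney. There were 2 RNA samples of P0. KPT had 5, 2, 2, 3, 5 and 5 samples at P1 to P6, T-LM 5, 2, 3, 4, 6 and 4, and K-LM 1, 1, 5, 3, 4 and 3. The methods describe culture of the digested tissue until no GFP-negative cell was seen, whereas the labels describe homogenised samples from tumours or metastases, so how much host tissue each RNA held is not settled by the sources. The labels do not tie a line to the line it came from or to its own mouse, so the p-values below measure the spread between these samples, part of which may be technical.

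A level below is the log2 of the processed probe intensity relative to the 75th percentile of the 12209 probes that were well above background on all 70 arrays, so 0 means a signal at that percentile and a more negative value a dimmer probe. The scanner software called 25.2% to 55.2% of probes well above background on an array, with a median of 33.0%. The 70 arrays covered 65 RNA samples on 9 slides, and 5 RNAs (both P0 samples and KPT P6 samples 1, 2 and 4) were repeated on a late slide, which also held all 3 K-LM P6 samples. Levels below are from the first array of an RNA unless the late slide is named. Of the renal epithelial markers, the keratins Krt8 and Krt18 and the transcription factor Pax8 were well above background in P0 and in every P6 sample, while Pax2 was in none of these. The other 3 markers of that list, Epcam, Cdh16 and Cdh1, were not well above background in P0 or K-LM P6. By limma Cdh16 rose in KPT P6 (fitted difference 3.62) and Cdh1 in T-LM P6 (3.19), and Epcam passed the background call in 2 of the 4 samples of T-LM P6. The 7 fibroblast markers were all below that call in P0 and were measured in passaged lines, as given beside the results.

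Probe signal was well above background on all 70 arrays for Plau, Plaur and Plat, on 46 for Serpinb2 and on 12 for Serpine2, and no member was saturated on any array. Over the 65 RNAs, levels ran from -4.92 to -0.68 for Plau, from -4.07 to -0.40 for Plaur and from -2.88 to -0.44 for Plat. Serpinb2 covered the widest range of the members, from -9.46 to -0.53, and Serpine2 ran from -9.28 to -3.81. The low ends of these ranges were not well above background. Levels of different members come from different probes and are not compared with each other.

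**Figure D1:**
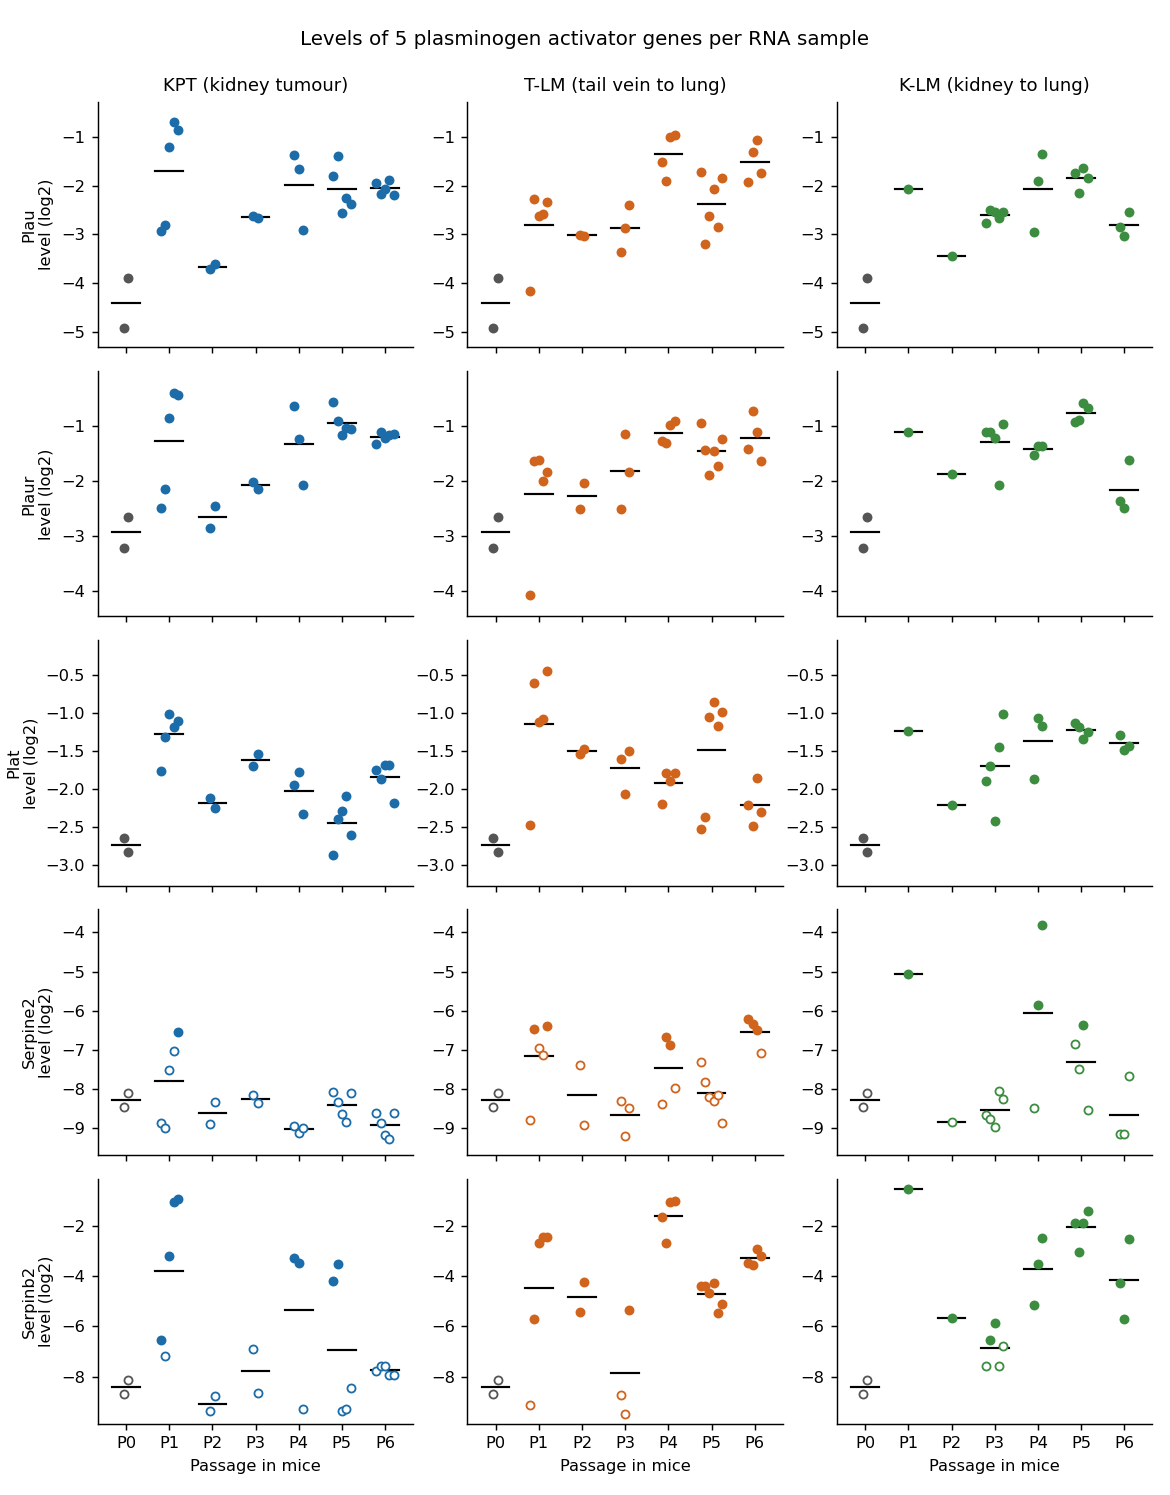
Level of each member (log2 of processed intensity relative to the array's 75th percentile, vertical axis) by passage (horizontal axis), with a column of panels per route, 1 point per RNA sample (open where not well above background) and a bar at each group mean, the same P0 samples being drawn in every route. The group means of Plau and Plaur were lowest in P0, at -4.41 and -2.94. Serpinb2 moved over a range of 8.94 log2 units, whose low end was not well above background, with wide gaps between samples of 1 passage.

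The first comparison asked which members differed between the starting cells and the last passage of each route. Plau rose in all 3 routes, Plaur rose in KPT and T-LM, and Serpinb2 rose in T-LM and K-LM. Plat and Serpine2 did not pass the threshold, an adjusted p at or under 0.01 in limma, in any route. The 3 comparisons share the same P0 samples, so they are not independent of each other. Statements below that samples of 2 groups did not overlap are descriptions. The share of all probes without overlap was not counted, and P0 had 2 samples. The study lists PLAU in its KPT and T-LM signatures, which started from genes that changed between P0 and P6 in these data. The Plau calls in KPT and T-LM, and the counts that include them, are therefore not independent of that selection.

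Plau, the gene of the urokinase protease, was at -4.92 and -3.90 in the P0 samples. In KPT P6 it was at -1.94, -2.18, -2.06, -1.89 and -2.18, in T-LM P6 at -1.92, -1.30, -1.06 and -1.73, and in K-LM P6 at -2.85, -3.03 and -2.53. Every P6 sample lay above both P0 samples. By limma with Benjamini-Hochberg adjustment over all probes tested, Plau was 2.36 ± 0.37 (SE) log2 units higher in KPT P6 (5.14-fold, adjusted p = 0.000465), 2.91 ± 0.41 higher in T-LM P6 (7.49-fold, adjusted p = 6.46e-05) and 1.41 ± 0.31 higher in K-LM P6 (2.65-fold, adjusted p = 0.00364).

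Plaur, the gene of the urokinase receptor, was at -3.23 and -2.65 in P0. It was at -1.32, -1.12, -1.21, -1.16 and -1.16 in KPT P6, at -1.43, -0.72, -1.11 and -1.63 in T-LM P6, and at -2.38, -2.50 and -1.62 in K-LM P6. No P6 sample overlapped P0, and of the P6 groups K-LM lay nearest to it. By limma, Plaur was 1.75 ± 0.28 (SE) higher in KPT P6 (3.36-fold, adjusted p = 0.00059) and 1.72 ± 0.33 higher in T-LM P6 (3.29-fold, adjusted p = 0.00148). The difference in K-LM, 0.74 ± 0.25, did not pass the threshold (limma, adjusted p = 0.0694).

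The Plaur promoter is shown because Plaur and Plau were each other's close neighbours in level over the samples, as given further on. It is the 250 bases upstream of the RefSeq transcript start on the plus strand of GRCm38.p6, chr7:24462233-24462482, with capitals on the only match to the motifs searched, an AP-1 site (TGACTCA or TGAGTCA, found on both strands) whose first base lies 69 bases upstream of the start.
Plaur: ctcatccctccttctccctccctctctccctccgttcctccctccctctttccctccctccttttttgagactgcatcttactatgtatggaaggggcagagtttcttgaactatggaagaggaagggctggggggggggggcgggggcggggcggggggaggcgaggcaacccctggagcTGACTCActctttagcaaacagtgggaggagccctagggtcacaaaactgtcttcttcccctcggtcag
Of 32851 RefSeq promoter windows of that length, 4.46% hold an AP-1 match, 1.55% a CRE match (TGACGTCA), 26.6% an Ets match (CNGGAAG) and 12.4% a TATAAA match. The promoter table used here has entries for Plaur, Serpinb2 and Serpine2.

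Serpinb2, the gene of the inhibitor PAI-2, was at -8.69 and -8.14 in P0, not well above background in either. In KPT P6 it was at -7.75, -7.55, -7.55, -7.91 and -7.95, with no first array well above background. In T-LM P6 it was at -3.50, -3.55, -2.93 and -3.20, and in K-LM P6 at -4.27, -5.70 and -2.53, well above background in every one of these samples. All 7 lung-derived P6 samples lay above all P0 and KPT P6 samples. As P0 had no measured signal, the rise is given as a bound, the P6 mean over the P0 mean of the lowest signal that counted as well above background on each array (or the probe's own signal where that was higher). Serpinb2 was at least 7.49-fold higher in T-LM P6 (limma difference 5.12 ± 0.75, adjusted p = 9.07e-05) and at least 6.46-fold higher in K-LM P6 (5.04 ± 0.81, adjusted p = 0.00012). In KPT the difference was 0.67 ± 1.59 (limma, adjusted p = 0.883), and within slides it was 0.75 on an early slide and 2.68 on the late slide, where all 3 repeated KPT P6 RNAs and no P0 RNA were well above background.

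The Serpinb2 promoter is shown as that of the member with the widest range. It is chr1:107511173-107511422 on the plus strand (GRCm38.p6, RefSeq), with capitals on its only match, TATAAA, 29 bases upstream of the start. RefSeq has another Serpinb2 start, with the window chr1:107511260-107511509, in which the same TATAAA lies at position -116 from the start.
Serpinb2: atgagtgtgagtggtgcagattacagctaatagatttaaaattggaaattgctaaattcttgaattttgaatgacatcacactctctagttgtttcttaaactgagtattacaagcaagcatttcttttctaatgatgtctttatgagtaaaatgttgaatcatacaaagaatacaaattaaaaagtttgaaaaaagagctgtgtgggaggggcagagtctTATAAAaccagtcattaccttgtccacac
The third member with an entry, Serpine2, had 2 Ets matches, 65 and 26 bases upstream of its start, in chr1:79858666-79858915 on the minus strand, and no AP-1 or TATAAA match. These matches describe the letters of the windows, and binding was not measured.

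Plat, the gene of tissue-type activator, was at -2.65 and -2.83 in P0, at -1.76, -1.87, -1.69, -1.69 and -2.19 in KPT P6, at -2.21, -2.49, -1.86 and -2.30 in T-LM P6, and at -1.29, -1.48 and -1.43 in K-LM P6. On these arrays every P6 sample was above both P0 samples, but the repeat of P0 sample 1 on the late slide, at -2.06, lay above 3 of the 4 T-LM P6 samples and KPT P6 sample 5. The differences were 0.90 ± 0.21 (KPT), 0.53 ± 0.39 (T-LM) and 1.04 ± 0.29 (K-LM) log2 units, and none passed the threshold (limma, adjusted p = 0.0128, 0.492 and 0.0215).

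Serpine2, the gene of protease nexin-1, was at -8.45 and -8.09 in P0, -6.22, -6.35, -6.50 and -7.07 in T-LM P6 (3 of 4 well above background), -9.16, -9.13 and -7.68 in K-LM P6, and between -9.28 and -8.61 in KPT P6. No P0, KPT P6 or K-LM P6 sample was well above background, so their values have no order, and the T-LM mean was not above the lowest measurable signal of the P0 arrays, so no fold is given. The fitted difference was 1.74 ± 0.49 in T-LM (limma, adjusted p = 0.0222) and 0.64 ± 0.76 in K-LM (adjusted p = 0.720), and the probe did not pass the signal filter of the KPT fit, so it was not tested there.

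In counts, KPT had 2 of 4 tested members called, T-LM 3 of 5 and K-LM 2 of 5, beside 3.84%, 7.37% and 5.64% of all probes tested. All called members were higher at P6, beside 3.36%, 5.99% and 4.23% of probes called as higher. The median log2 difference over the tested members was 1.32 for KPT, 1.74 for T-LM and 1.04 for K-LM, beside -0.02, 0.01 and 0.02 over all probes tested. Within slides that held both groups, Plau was 2.62 and 2.74 higher and Plaur 1.75 and 2.07 higher in KPT P6, Plau was 1.98, Plaur 1.23 and Serpinb2 4.65 higher in T-LM P6, and Plau was 1.48 and Serpinb2 5.66 higher in K-LM P6. P0 had 2 samples and its first sample set several calls: without it the differences were 1.85 (Plau) and 1.46 (Plaur) in KPT, 1.43 (Plaur) in T-LM and 1.12 (Plau) in K-LM, with adjusted p of 0.0364, 0.0376, 0.0604 and 0.116 (limma), and Plau in K-LM also lost its call without K-LM P6 replicate 1 (1.43, adjusted p = 0.0128) or 3 (1.27, 0.0255). With every slide as a fixed term, calls were lost for Plaur (adjusted p = 0.0178) and Serpinb2 (0.0206) in T-LM and for Plau (0.0699) and Serpinb2 (0.0421) in K-LM, and with all routes in 1 model for the K-LM pair (0.0668 and 0.0334).

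**Figure D2:**
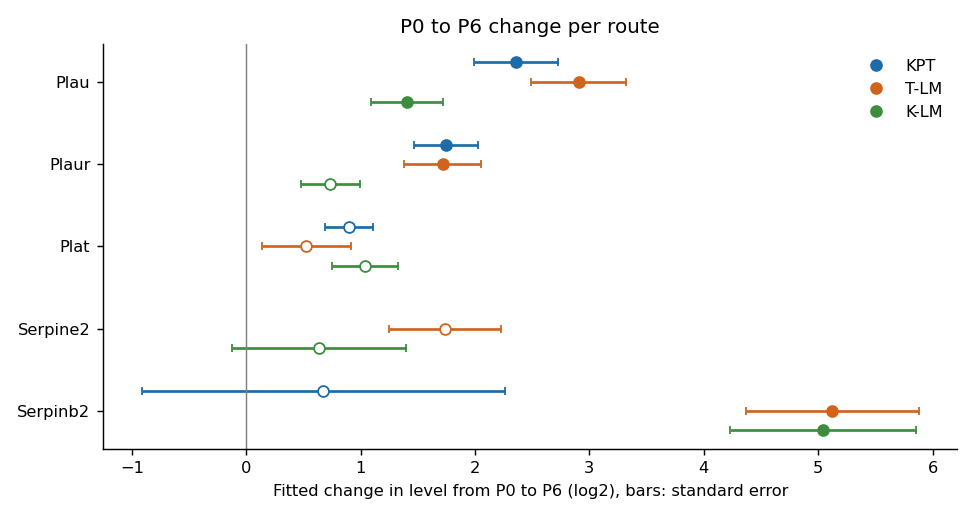
Fitted difference from P0 to P6 (log2, horizontal axis) of each member in KPT, T-LM and K-LM, with bars of 1 SE from limma and filled points for an adjusted p at or under 0.01; Serpine2 was not tested in KPT. Plau has filled points in all routes, at 2.36, 2.91 and 1.41, and Serpinb2 is at 5.12 in T-LM and 5.04 in K-LM but at 0.67 with an SE of 1.59 in KPT.

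The fibroblast markers moved along with several of these differences. The summed signal of the 7 markers, as a percentage of the array's 75th percentile, was 2.91 and 3.23 in P0, 40.7 to 108 in KPT P6, 180 to 608 in T-LM P6 and 94.1 to 290 in K-LM P6. By limma the fibroblast markers that rose were 2 of 6 tested for KPT, 5 of 7 for T-LM and 5 of 7 for K-LM, and their part in the result was not tested. The macrophage marker sum was 189 to 247 in P0, 291 to 414 in KPT P6, 300 to 331 in T-LM P6 and 241 to 355 in K-LM P6, with 3 of 8 markers called in T-LM (Ptprc, Tyrobp and Cd14) and none in KPT or K-LM. Of lung epithelial markers, Sftpc and Ager were called in T-LM and Scgb1a1 in KPT and K-LM. The lymphocyte genes Cd3d and Cd79a were never well above background. Cd3e, the remaining gene of the lymphocyte list, passed the background call in every group, P0 included, though not necessarily in every sample. Its P0 to P6 differences were -0.35 (KPT), -0.36 (T-LM) and 0.33 (K-LM). None passed the threshold (limma, adjusted p = 0.737, 0.610 and 0.641). In these bulk RNAs, fewer cells of a type and less RNA per cell cannot be told apart.

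**Figure D3:**
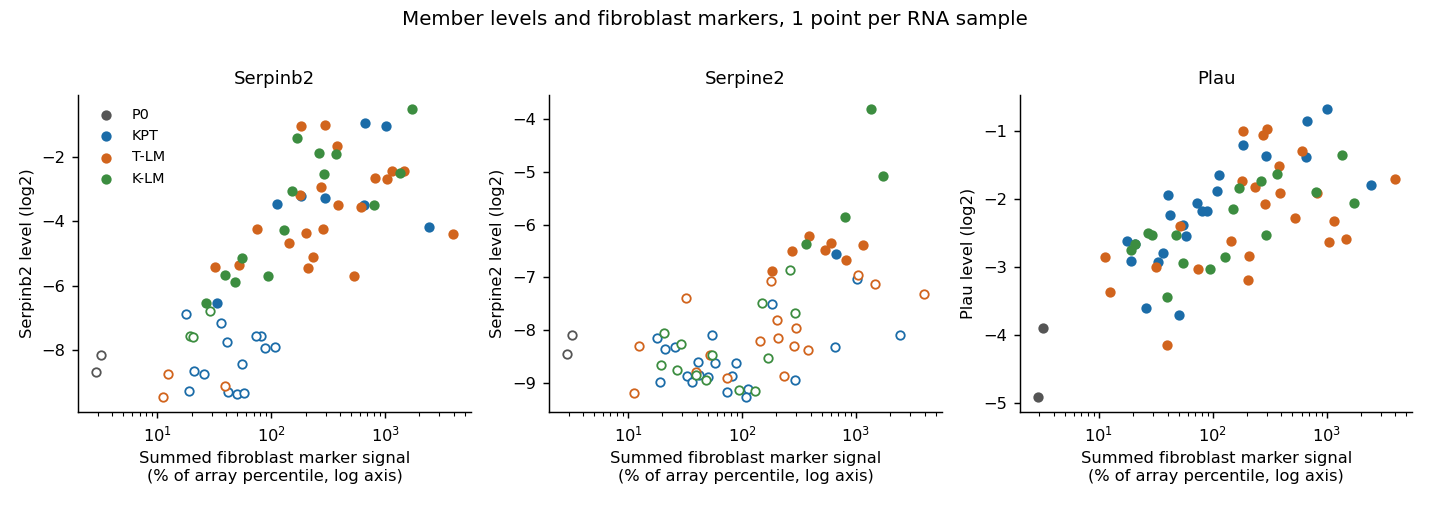
Levels of Serpinb2, Serpine2 and Plau (log2, vertical axes) against the summed signal of the fibroblast markers (percent of the array's 75th percentile, log horizontal axis), with 1 point per RNA sample coloured by route and open where the member was not well above background. The P0 pair lies at the left, at sums of 2.91 and 3.23 with Serpinb2 at -8.69 and -8.14, and K-LM P1, at a sum of 1735, has the highest Serpinb2 level, -0.53.

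Through the passages, Plau was lowest in P0, at a mean of -4.41 ± 0.72 (SD, n = 2), and next lowest in KPT P2, at -3.66 ± 0.07 (n = 2). Its KPT means were -1.70 ± 1.08 at P1, -2.64 ± 0.04 at P3, -1.98 ± 0.83 at P4, -2.07 ± 0.48 at P5 and -2.05 ± 0.13 at P6. Its T-LM means were -2.80 ± 0.78, -3.02 ± 0.02, -2.87 ± 0.49, -1.35 ± 0.45, -2.38 ± 0.59 and -1.503 ± 0.39 from P1 to P6, and its K-LM values were -2.07 and -3.45 at P1 and P2 (1 sample each), -2.60 ± 0.11 at P3, -2.07 ± 0.81 at P4, -1.85 ± 0.22 at P5 and -2.80 ± 0.25 at P6. T-LM P4 stood highest and T-LM P6 next, and 15 of the 18 neighbouring pairs in this order of 19 groups differed by less than the larger of their SDs, the exceptions being around K-LM P2, KPT P2 and P0 at the low end.

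Plaur was also lowest in P0 (-2.94 ± 0.41), with KPT P2 (-2.66 ± 0.29) next. K-LM P5 (-0.77 ± 0.17) and KPT P5 (-0.94 ± 0.23) were the highest, followed by K-LM P1, T-LM P4 (-1.12 ± 0.20), KPT P6 (-1.19 ± 0.08) and T-LM P6 (-1.22 ± 0.40). K-LM P6 (-2.17 ± 0.47) stood in the lower part of the order. Of the 18 neighbouring pairs, 16 differed by less than the larger SD.

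Plat had the narrowest order, from T-LM P1 (-1.14 ± 0.80) and K-LM P5 (-1.23 ± 0.09) to KPT P5 (-2.46 ± 0.30) and P0 (-2.74 ± 0.13), and every neighbouring pair differed by less than the larger SD. Serpinb2 was highest in the single K-LM P1 sample (-0.53), in T-LM P4 (-1.60 ± 0.77) and in K-LM P5 (-2.06 ± 0.69). Its lowest means were those of P0 (-8.42 ± 0.39) and KPT P2 (-9.06 ± 0.45). No sample of either group was well above background, so these low means have no order. Serpine2 was highest in K-LM P1 (-5.07) and K-LM P4 (-6.05 ± 2.34), where the samples were at -8.48, -5.86 and -3.81 with fibroblast sums of 55.0, 801 and 1355.

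Serpinb2 was uneven within a passage. In KPT P4 it was at -3.27 and -3.46 in 2 samples and at -9.27 in the remaining sample, whose fibroblast sums were 295, 113 and 19.1. In KPT P5 it was at -4.19, -3.51, -9.34, -9.29 and -8.42, with sums of 2431, 656, 57.9, 42.1 and 54.8. In KPT P1 it was at -6.54, -7.17, -3.21, -1.04 and -0.95, with sums of 33.2, 36.4, 182, 1013 and 672. In each of these 3 groups the samples high in Serpinb2 had higher fibroblast sums than the samples low in it, and their part in the result was not tested. The T-LM P4 samples, at -1.66, -2.67, -1.05 and -1.002, had sums of 381, 817, 182 and 299, where the highest sum went with the lowest Serpinb2 level.

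Between P3 and P6, the comparison of an early and a late passage of 1 route, no member was called in KPT or K-LM and 2 were called in T-LM, beside 0.798%, 5.82% and 7.17% of all probes tested. At an unadjusted limma p under 0.05 there was 1 of 4 tested members in KPT (Plaur), beside 4669 of 20685 probes. In K-LM there were 2 of 5 (Plaur and Serpinb2), beside 7393 of 21966 probes. In T-LM P3, Serpinb2 was at -8.73, -9.46 and -5.35, with 1 of 3 samples well above background, and Serpine2 was at -8.30, -9.19 and -8.47. All T-LM P6 samples lay above all P3 samples for Serpinb2. For Serpine2 this held for the T-LM P6 samples that were well above background. T-LM P6 sample 4, at -7.07, and the P3 samples were not, so they have no order. By limma Serpinb2 was 4.56 ± 0.66 higher at P6 (adjusted p = 0.000124), or 3.07 higher with dim values set to a floor, and Serpine2 2.12 ± 0.43 higher (adjusted p = 0.00236), at least 1.18-fold. Within the 3 slides that held both passages Serpinb2 differed by 2.16 to 6.54 and Serpine2 by 1.40 to 2.69. The fibroblast sums were 12.4, 11.2 and 51.9 at P3 against 180 to 608 at P6, with 5 of 7 markers called higher. Also higher at P6 were 3 of 8 tested macrophage markers (Ptprc 1.54, Tyrobp 6.35 and Cd14 1.97), 3 of 4 lung epithelial markers (Sftpc 5.94, Sftpb 3.44 and Ager 2.63) and the epithelial genes Epcam (1.91) and Cdh1 (3.67), and the part of these cell types in the result was not tested. The Serpine2 call was lost without T-LM P3 replicate 3 (1.85, limma adjusted p = 0.0121) and with dim values set to a floor (0.39, 0.0523), and both calls were lost with every slide as a fixed term (adjusted p = 0.0160 for Serpine2 and 0.0249 for Serpinb2) or with all routes in 1 model (0.0129 and 0.0170). In K-LM, Serpinb2 was 2.88 higher and Plaur fell by 0.91 at P6 without passing the threshold (limma, adjusted p = 0.0122 and 0.0116).

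At P1, the passage that follows a single round in mice, KPT had 2 members called against P0, Plau and Plat, beside 4.52% of all probes tested. Plau was at -2.93, -2.80, -1.21, -0.68 and -0.86 and Plat at -1.76, -1.32, -1.01, -1.18 and -1.11, all above both P0 samples. Plau was 2.71 ± 0.52 higher (6.55-fold, limma adjusted p = 0.00242) and Plat 1.46 ± 0.22 higher (2.76-fold, adjusted p = 0.00031), and within 2 slides the differences were 3.22 and 3.71 for Plau and 1.64 and 1.65 for Plat. The 3 samples with the highest Plau had fibroblast sums of 182, 1013 and 672, against 33.2 and 36.4 in the other 2 samples and 2.91 and 3.23 in P0, with 2 of 6 tested markers called, and their part in the result was not tested. Without P0 replicate 1 the Plau difference was 2.20 (limma adjusted p = 0.0865), and without P0 replicate 2 both calls were lost (Plau 3.22, 0.0148, and Plat 1.37, 0.0151), as they were with only P0 and P1 in the fit (0.0556 and 0.0184).

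No member was called from P0 to P1 in T-LM (2.75% of all probes called), from P1 to P6 in KPT (11.7%) or T-LM (9.22%), or between T-LM and KPT at P1 (0.00438%). At an unadjusted limma p under 0.05 these comparisons held 3 of 5, 2 of 4, 3 of 5 and 0 of 5 tested members. Beside them stood 5935 of 23019, 7421 of 21570, 7521 of 23019 and 2102 of 22840 probes. T-LM P1 sample 1 stood apart from the other 4, with Plau at -4.16 against -2.63 to -2.28, Plaur at -4.07 against -2.01 to -1.63 and Serpinb2 at -9.11 against -5.71 to -2.43. Its title gives neither route nor replicate, its experiment label gives tail, and its number was given in accession order. Its fibroblast sum was 39.2 against 530 to 1478. Leaving out 1 RNA at a time gave 0 to 3 members called between P0 and P1 in T-LM. Without this sample, Plau, Plat and Serpinb2 were called. The 2.75% above is from the fit with all samples, and the share without this sample is not given here.

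At P6 the routes were compared with each other directly, all arrays in 1 fit with a term for the late slide. Against KPT P6, T-LM P6 had 2 members called (beside 11.3% of all probes) and K-LM P6 had 3 (beside 15.4%). Serpinb2 was 4.20 ± 0.51 higher in T-LM (limma adjusted p = 8.98e-06) and 3.47 ± 0.59 higher in K-LM (adjusted p = 0.000333). As 3 of 8 KPT P6 arrays had it well above background, no fold is given, and with dim values set to a floor the differences were 3.57 and 2.66. Serpine2, below background on all KPT P6 arrays, had a fitted difference of 2.28 ± 0.28 between T-LM and KPT (limma adjusted p = 1.23e-05), which was 0.39 with dim values at the floor (adjusted p = 0.00486). For Serpinb2 every T-LM P6 and K-LM P6 sample lay above every KPT P6 sample. For Serpine2 the T-LM P6 samples that were well above background lay above every KPT P6 sample. T-LM P6 sample 4, at -7.07, was not well above background, so it has no order relative to KPT. Plau was lower in K-LM than in KPT by 2.09-fold (-1.06 ± 0.23, adjusted p = 0.00197) and Plaur by 2.02-fold (-1.01 ± 0.21, adjusted p = 0.00192).

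K-LM P6 was also lower than T-LM P6 in Plau (-1.58 ± 0.26, 2.99-fold, limma adjusted p = 0.000376) and Plaur (-0.98 ± 0.25, 1.98-fold, adjusted p = 0.00923), 2 members beside 11.8% of all probes. The K-LM P6 levels given above, -3.03 to -2.53 for Plau, lay below every KPT and T-LM P6 level, and those of Plaur overlapped the T-LM range. Within a slide T-LM minus KPT gave 4.55 for Serpinb2 and 1.54 for Serpine2, and on the late slide K-LM minus KPT gave -1.14 for Plau, -1.01 for Plaur and 2.98 for Serpinb2. With the late slide alone in the fit, 1 member was called in K-LM minus KPT. Over all alternatives Serpinb2 lost its K-LM minus KPT call in 3 of 20. No slide held both K-LM P6 and T-LM P6. At P5, where no array lay on the late slide, K-LM was fitted higher, not lower, than both other routes in Plau and Plaur. These P5 differences did not pass the threshold and are given below. Cell type markers moved in the same contrasts: in T-LM minus KPT 5 of 7 fibroblast, 5 of 8 macrophage and 3 of 4 lung epithelial markers were higher and 1 macrophage marker was lower. In K-LM minus KPT, 2 fibroblast, 2 macrophage and 1 lung epithelial marker were higher and 2 macrophage markers were lower, and in K-LM minus T-LM 5 macrophage, 2 lung epithelial and 1 fibroblast marker were lower. Their part in the result was not tested. With every slide as a fixed term none of these 7 calls was kept: adjusted p was 0.130 and 0.123 for Serpinb2, 0.0413 for Serpine2, 0.0928 and 0.0771 for Plau and 0.0887 and 0.305 for Plaur. The K-LM minus KPT calls of Plau and Plaur, but not of Serpinb2, were also lost without K-LM P6 replicate 1 (Plau -1.04, Plaur -0.91) or 2 (Plau -0.95, Plaur -0.85), and Plaur in K-LM minus T-LM without K-LM P6 replicate 1 or 2 or T-LM P6 replicate 1, 2 or 3 (-1.05 to -0.82, limma adjusted p = 0.0109 to 0.0476). The late slide itself changed no member past the threshold in limma (0 of 4 tested members, beside 0.0341% of all probes). None was at an unadjusted limma p under 0.05 either, beside 4699 of 20500 probes. For Serpinb2 the repeats moved in opposite directions, by 0.45, 0.86 and 0.46 in KPT P6 and by -1.52 and -1.30 in P0. P0 was not well above background on either array. Serpine2, not tested here, was lower on every repeat (-1.41 to -0.24) and never well above background there. The late slide term takes a single value per probe for all groups, so it cannot follow opposite shifts.

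At P5, 1 member was called in 1 of 3 route comparisons: Serpinb2 was 4.88 ± 1.04 higher in K-LM than in KPT (limma adjusted p = 0.00538), or 3.60 higher with dim values at a floor, beside 7.42% of all probes. K-LM P5 was at -1.89, -3.05, -1.90 and -1.42, above all 5 KPT P5 samples given above, of which 2 were well above background. On the 2 slides that held both, the difference was 5.37 and 7.40. In the same contrast 1 of 7 fibroblast and 3 of 4 tested renal epithelial markers were lower in K-LM, and none of either was higher. The fibroblast sums were 263, 151, 367 and 170 in K-LM P5. In KPT P5 they were 2431 and 656 in the samples high in Serpinb2 and 57.9, 42.1 and 54.8 in the others. Their part in the result was not tested. The call was lost without any of 7 libraries (KPT P5 replicates 3, 4 and 5 and all 4 of K-LM P5, adjusted p = 0.0121 to 0.0202), and at 3.74 (adjusted p = 0.0799) with a covariate for the mean level of 18 long mRNAs relative to 74 ribosomal protein mRNAs, an index of RNA condition. Of 20 alternatives in all, 10 lost this Serpinb2 call. P5 T-LM minus KPT and K-LM minus T-LM called none, beside 5.31% and 3.42% of all probes. At an unadjusted limma p under 0.05 they held 3 of 4 and 2 of 4 tested members, beside 5660 and 5419 of 19550 probes. In K-LM P5, Plau stood at 0.23 relative to KPT and 0.53 relative to T-LM, and Plaur at 0.17 and 0.68 (log2, not past the threshold).

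The other genes of the pathway were taken from lists by role. These were the zymogen, plasminogen receptors, uPAR partners and clearance receptors, and proteases and growth factors linked to activation of uPA or by it. Transcription factors of the AP-1 and Ets families, known as regulators of Plau, were listed by family. Whether each of them acts on Plau was not tested. In P0 to P6, Itgb3, an integrin subunit that can partner uPAR, passed in all 3 routes, by at least 5.36-fold in KPT, at least 8.91-fold in T-LM and at least 9.28-fold in K-LM, since its P0 signal was below background. Hgfac, the gene of a protease that activates hepatocyte growth factor, passed in all 3 routes too, by at least 1.51-fold in KPT and at least 1.89-fold in T-LM, and by 2.08 log2 units in K-LM, where 1 of 4 P0 arrays measured it. St14 (matriptase, a membrane protease that can activate uPA) rose by at least 1.65-fold in T-LM, while Mst1 (macrophage-stimulating protein) fell by 1.29 log2 units there.

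The counts by list stand beside 3.84%, 7.37% and 5.64% of all probes called in KPT, T-LM and K-LM, of which 3.36%, 5.99% and 4.23% were higher. By list, 0 of 4 plasminogen receptors passed in any route. Of the 11 uPAR partners and clearance receptors, 1 rose in each route (of 10, 8 and 9 tested), and of the 7 activation genes 1 of 4 rose in KPT, 2 of 4 rose and 1 fell in T-LM, and 1 of 5 rose in K-LM. Of the AP-1 and Ets factors 3 of 12 rose in KPT (Fos by 2.42 log2 units, Etv4 by 2.15 and Fosb by at least 1.40-fold), 5 in T-LM (Fos by 2.55, Etv4 by 2.20, Etv5 by 2.92, Elf3 by 1.93 and Fosb by at least 1.60-fold) and 2 in K-LM (Etv5 by 2.64 and Fosl1 by 1.66), and none fell. Plg, the plasminogen gene itself, was not well above background at P0 or P6 in any route. At P6, St14 stood at 1.12 relative to KPT for T-LM and at -0.89 for K-LM (log2), where no sample had it well above background, and at -2.01 in K-LM minus T-LM. Elf3 was 2.28 and 1.67 higher in T-LM and K-LM than in KPT, Fosl1 was 1.18 higher in K-LM than in KPT, and Mst1 stood at -0.61 in T-LM minus KPT (limma, adjusted p at or under 0.01). The other genes called between routes were Egfr (2.04) and Junb (1.22) in T-LM minus KPT, Igf2r (0.80) and Jund (0.96) in K-LM minus KPT, and Igf2r (1.01), Jun (0.74) and Jund (1.33) in K-LM minus T-LM.

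**Figure D4:**
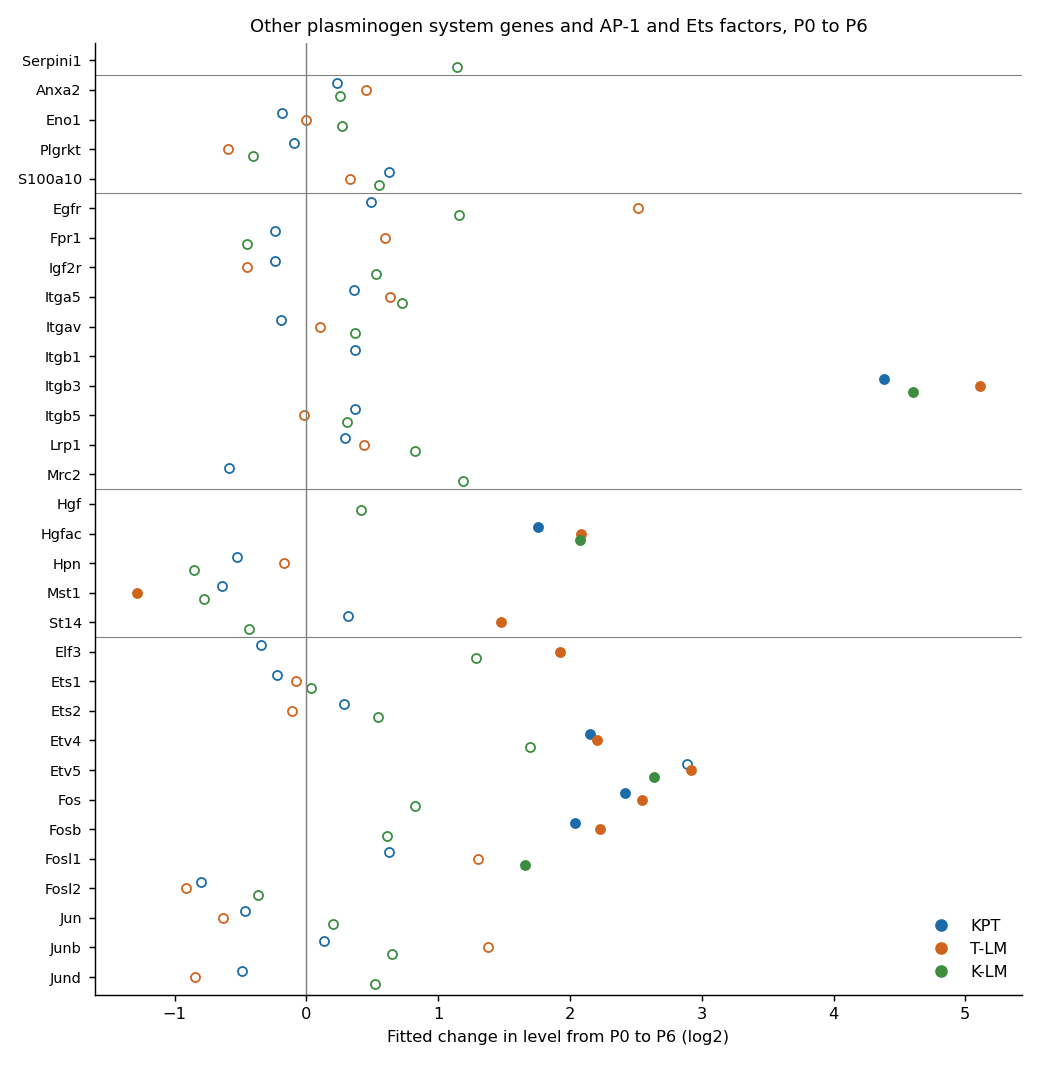
Fitted difference from P0 to P6 (log2, horizontal axis) of the tested pathway genes, grouped by role between grey lines and coloured by route, with filled points for an adjusted p at or under 0.01 in limma. Itgb3 has filled points in all 3 routes (4.38, 5.11 and 4.60), whereas the plasminogen receptors Anxa2, Eno1, Plgrkt and S100a10 have none.

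The genes closest to each member in level were found by Pearson correlation over the 65 RNAs among 10083 genes (10084 for Serpine2), given as a description because samples of 1 passage share slides and origin. Plau was closest to Prkg2 (r = 0.859), Plaur (0.833) and the cytokine gene Il11 (0.818), and Plaur to Plau, Socs1 (0.808) and Prkg2 (0.797). Serpinb2 was closest to the cytokine gene Il6 (0.917), the EGF receptor ligand gene Ereg (0.910) and Socs3 (0.893), Plat to Ap3s1 (0.819), Stx11 (0.809) and Ero1a (0.808), and Serpine2 to Lhfp (0.790), Mdk (0.788) and Tm4sf1 (0.783). Serpine2 was well above background in 12 of the 65 RNAs and Serpinb2 in 43. Their correlations therefore include many values near background, most of all those of Serpine2. Over the 19 group means, the closest gene was again Prkg2 for Plau (0.891), Plau for Plaur (0.885), Ap3s1 for Plat (0.918), Lhfp for Serpine2 (0.930) and Il6 for Serpinb2 (0.937). Among the members, Serpinb2 correlated with Plau at 0.678 and with Serpine2 at 0.630, while Plat correlated with Plau at 0.228 and with Plaur at 0.102.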

How the data were processed

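RNA was labelled with Cy5 and hybridised to single-colour Agilent 8x60K mouse arrays. The deposited scanner files hold median, background and processed intensity per spot, made by the authors with Feature Extraction 11.0.1.1 (62 arrays on 8 slides) and 12.0.2.2 (8 arrays on the late slide), per the file headers. The deposited series values are log2 medians after quantile normalization, which matched the scanner files to within 0.105 with column medians from 6.21 to 6.23, and were used only as an alternative. No probe sequence or array genome build was given in the sources used here.

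From 62976 spots, 3671 control spots and outlier-flagged spots (0.366%) were left out and spots of a probe were averaged. Most probes were not detected on 69 of 70 arrays, so log2 processed intensity was scaled to the 75th percentile of the 12209 probes well above background on all arrays. Groups came from the labels, and precision is set by how many arrays a group had. Probes were tested if at least 2 arrays of the fit had them well above background, with limma 3.58.1 (R 4.3.3, statmod 1.5.0), per route, with a threshold of an adjusted p at or under 0.01. P1 was added only for comparisons with P1. K-LM and P6 fits used all arrays, a late slide term and the RNA as random block. Scripts were tested on simulated data. Alternatives were scaling, background correction, filters, samples in the fit, RNA condition, slide, replicate number and leaving out each RNA. In P1 T-LM minus KPT all 4 same-numbered pairs correlated above 0.1 (0.197 to 0.337), so the block was also fitted there, and no member was called with or without it.

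The members, and the gene lists described by counts, were chosen with earlier results of these data known. By rule, every member is named with its P0 to P6 values. Other comparisons give fitted changes for called members, and pathway genes are named where they passed from P0 to P6. Some genes of the lists, and the counts for other inhibitors, are not reported here.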

Additional observations from a re-analysis of the deposited data

Results flagged for a closer look

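In T-LM P1, replicate 1 lay apart from the other 4 samples, with Plau at -4.16 (a gap to its nearest neighbour of 0.813 of the group's range) and Plaur at -4.07 (0.844). In K-LM P3, replicate 4 lay apart with Plaur at -2.08 (0.767). These are 3 of 45 sets tested, each 1 gene in 1 group, and chance gives about 1 in 20. The sets are not independent. Both flags in T-LM P1 come from the same sample, and Plau and Plaur correlated at 0.833 over the RNAs.

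The routes differed at P6 by limma in Serpine2 (T-LM minus KPT 2.28), in Serpinb2 (T-LM minus KPT 4.20, K-LM minus KPT 3.47), in Plau (K-LM minus KPT -1.06, K-LM minus T-LM -1.58) and in Plaur (-1.01 and -0.98 for the same contrasts). At P5, Serpinb2 differed by 4.88 between K-LM and KPT.

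The single K-LM P1 sample, used in no comparison, had Serpinb2 at -0.53 and Serpine2 at -5.07, against highest P0 levels of -8.14 and -8.09, and a fibroblast marker sum of 1735 beside 2.91 and 3.23 in P0.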

How the results depend on the processing

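Over 26 gene differences, 471 alternative values gave 396 with the same direction and side of the threshold, 67 that lost the call, 8 that gained it and none that changed sign. The counts below are members called, beside those given in the report. Leaving out 1 RNA at a time gave 0 to 3 from P0 to P6 in KPT, 2 to 3 in T-LM and 1 to 2 in K-LM. It gave 0 to 3 from P0 to P1 in KPT and T-LM, 0 to 1 from P1 to P6 in both, 1 to 2 from P3 to P6 in T-LM and 0 to 1 in K-LM. For the routes at P6 it gave 2 to 2 (T-LM minus KPT), 1 to 3 (K-LM minus KPT) and 1 to 3 (K-LM minus T-LM), and at P5 0 to 1 in each. With every slide as a fixed term the count was 1 for T-LM P0 to P6, P0 to P1 and P1 to P6, and 0 for T-LM P3 to P6, K-LM P0 to P6 and the 3 contrasts at P6. In 1 model of all routes it was 0 for T-LM P3 to P6, K-LM P0 to P6, P6 K-LM minus KPT and P6 K-LM minus T-LM, 1 for P6 T-LM minus KPT and P5 T-LM minus KPT, and 2 for T-LM P0 to P1, T-LM P1 to P6 and P5 K-LM minus KPT.

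With only the 2 groups compared (P0 kept where the late slide term needs it) it was 1 for KPT P3 to P6, T-LM P3 to P6, K-LM P0 to P6, K-LM P3 to P6 and P5 K-LM minus T-LM, and 0 for KPT P0 to P1 and P6 K-LM minus T-LM. A filter on every array gave 0 for T-LM P3 to P6, P6 T-LM minus KPT and P5 K-LM minus KPT, and 1 for K-LM P0 to P6 and P3 to P6. Scaling on all probes gave 1 for T-LM P1 to P6, K-LM P3 to P6 and P6 K-LM minus T-LM. Normexp and the deposited values each gave 1 for T-LM P1 to P6 and K-LM P3 to P6 and 2 for P5 K-LM minus KPT, and the deposited values 1 for K-LM P0 to P6. A floor gave 1 for T-LM P3 to P6 and 2 for K-LM P3 to P6. No filter gave 1 for P6 K-LM minus T-LM and for the late slide. Without the late slide term K-LM P3 to P6 gave 2 and P6 K-LM minus T-LM 4, the late slide alone gave 1 for P6 K-LM minus KPT, and the RNA index gave 0 for P5 K-LM minus KPT. P5 without the samples highest in fibroblast markers, chosen after seeing the data, gave 1 for K-LM minus T-LM. The replicate block, where numbers are shared but do not pair samples, gave 1 for KPT P0 to P1 (Plat), T-LM P0 to P1 (Serpinb2) and K-LM P0 to P6 (Serpinb2), and in T-LM P0 to P6 Plaur had an adjusted p of 0.0128 and Serpine2 of 0.00841. The cause of these changes was not tested.

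Over all probes, 795, 1552 and 1239 were called from P0 to P6 in KPT, T-LM and K-LM. With the filter on every array there were 252, 398 and 405. With only the 2 groups KPT had 1348 and K-LM 2005, and on the late slide 1715 and 3028. In T-LM 81.2% of calls were higher, beside 62.9% with scaling on all probes, which moved the median of all probes by -0.12, -0.23 and -0.10 in the 3 routes, and 70.0% with normexp. The mean over all probes of a gene was not run because each member has 1 probe, and the floor gave no value for Serpinb2 in KPT and Serpine2 in K-LM from P0 to P6, where all arrays were at the floor. Serpinb2 in P0 and KPT and Serpine2 in most groups were near background, so small differences there were not detectable.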

Other observations

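The single samples of K-LM P1 and P2, too few for a comparison, gave the following levels. At P1 Plau was at -2.07, Plaur at -1.11 and Plat at -1.24, and at P2 they were at -3.45, -1.88 and -2.21. Serpinb2 was at -5.67 and Serpine2 at -8.85 at P2, where the fibroblast marker sum was 39.5.

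On the late slide the repeated P0 RNAs had Plau at -4.41 and -4.15, Plaur at -3.19 and -2.62 and Plat at -2.06 and -2.73. Serpinb2 was at -10.21 and -9.44 in them, not well above background. The repeated KPT P6 RNAs had Serpinb2 at -7.30, -6.69 and -7.45, all well above background, where their first arrays were not.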
